A study of Drosophila melanogaster with 10 samples.

Results

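The genes aly, sa, can and fzo act in the male germline of the fruit fly Drosophila melanogaster, and their RNA was followed here in whole animals over part of a day. They were chosen by name, with their values at hour 7 already known from an earlier pass over these arrays, because they had not risen there with the genes of late sperm. The platform annotation named each of the 4 genes on 1 probe set, so 4 of 13966 non-control probe sets and 4 of 10843 named genes are described. The values at hour 7 are therefore a description, with no test.

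Whole-fly total RNA was read on 10 Affymetrix arrays that cover hours 1, 2, 3, 5, 6, 7, 9, 10, 11 and 12 of a 12 hour series of samples, each hour once. All 10 arrays come from the group labelled No Yeast (NY). Its animals were moved early in the third larval instar from standard food to the same food without yeast, and were kept without it. Sampling opened when adults were 4 days past emergence. Hours 4 and 8 gave too little RNA for an array, per the labels. The labels state neither strain, genotype nor sex, nor how many flies made up a sample, and flies returned to yeast are not analysed here. The 10 arrays had medians between 111.2 and 120.1 intensity units. A change in whole-fly RNA can come from fewer cells of a type or from less RNA per cell, and these cannot be told apart.

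Spermatocytes of the fly switch on a large transcription programme before meiosis, and most RNA needed for making sperm is stored then and translated later. A pair of protein assemblies runs that programme, the testis meiotic arrest complex, tMAC, and a set of testis versions of the TBP-associated factors, the tTAFs. Loss of either stops germ cells before the meiotic divisions, hence the name meiotic arrest genes. The gene aly, always early, encodes a tMAC subunit related to the LIN-9 protein. The genes sa, spermatocyte arrest, and can, cannonball, encode the tTAFs related to TAF8 and TAF5. The gene fzo, fuzzy onions, encodes a mitofusin, a GTPase that fuses the mitochondria of the early spermatid into the nebenkern. Its transcription in spermatocytes is known to need the meiotic arrest genes.

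The tMAC subunit gene aly gave a nearly level signal through the course. Its intensity was 162.1, 173.1, 171.6, 158.3, 173.6, 176.5, 169.7, 163.2, 169.1 and 179.8 at hours 1, 2, 3, 5, 6, 7, 9, 10, 11 and 12. The highest array, hour 12, stood 1.14-fold above the lowest, hour 5. Its SD over the 10 arrays was 0.058 on the log2 scale, below that of all but 2.81% of probe sets. With the chip split into 4 bands of equal size by brightness, the median SD in its own band was 0.12, and 4.18% of that band varied less. With 1 array an hour there is no spread within an hour, so no order is read from such close values.

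The tTAF gene sa had 1 high array on an otherwise even course. Its intensity was 142.4, 153.6, 236.3, 139.5, 136.2, 143.8, 148.5, 157.7, 127.7 and 145.4 at the same hours. Hour 3 stood apart at 236.3, while the other 9 arrays lay between 127.7 and 157.7. Its SD on the log2 scale was 0.24 over 10 arrays and 0.091 without hour 3. The order among the other 9 arrays rested on differences of at most 1.24-fold.

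The mitofusin gene fzo was dim, and it too was highest at hour 3. Its intensity was 39.32, 43.51, 59.11, 45.53, 36.31, 33.84, 40.49, 37.87, 41.05 and 36.76. Hours 3 and 5 were the highest arrays and hour 7 was the lowest of all. On 9 of 10 arrays fzo lay under the 20th percentile of all intensities on the chip, 57.4. Its SD on the log2 scale was 0.23 over 10 arrays and 0.13 without hour 3.

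The tTAF gene can lay at the dim end of the chip. Its intensity was 18.97, 23, 22.02, 20.33, 18.45, 18.85, 18.72, 25.69, 19.92 and 20.29, and all 10 arrays lay under the 5th percentile of all intensities, 27. Hours 10 and 2 were the highest and hour 6 the lowest, with 1.39-fold between the extremes, where the median over all probe sets was 1.36-fold. Its SD of 0.15 on the log2 scale compares with a median of 0.17 in the dimmest band. Detection calls, which would say whether can was above background, were not used here, nor were they for aly, sa or fzo. How much of the signal of any member came from the male germline was not tested.

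**Figure D1:**
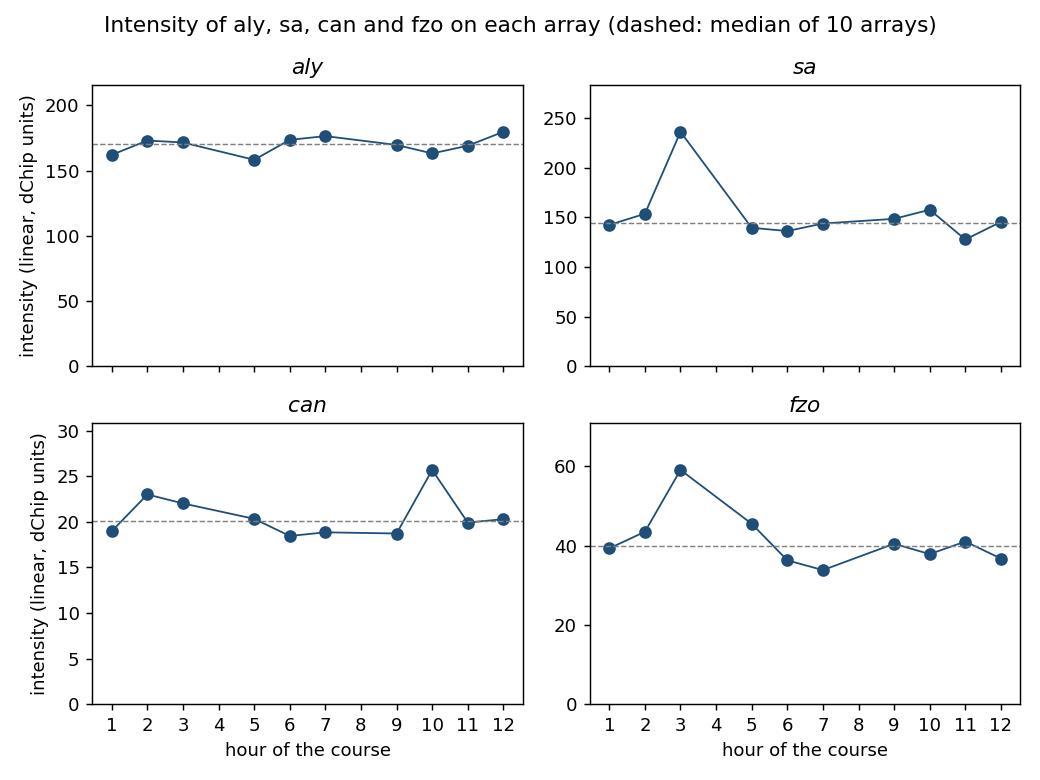
Intensity of aly, sa, can and fzo (linear dChip units, each axis from 0) against the hour of the course, with 1 point per array and the median of 10 arrays as a dashed line. sa and fzo have their highest point at hour 3, at 236.3 and 59.11, while aly stays between 158.3 and 179.8.

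Whether the members changed over the course was asked first with a straight line. None of the 4 passed (limma, 0 of 4 adjusted and 0 of 4 at an unadjusted p under 0.05), where 0.0286% of all probe sets did, and an exact rank correlation called 0 probe sets on the whole chip. Over the whole course aly changed in the fit by 0.05 ± 0.08 in log2 units (SE, n = 10 arrays; limma, adjusted p = 0.981), with a 95% interval of -0.13 to 0.23. For sa it was -0.24 ± 0.20 (limma, adjusted p = 0.981), with an interval of -0.68 to 0.20. For fzo it was -0.28 ± 0.18 (limma, adjusted p = 0.981), with an interval of -0.69 to 0.12. For can it was 0.01 ± 0.17 (limma, adjusted p = 0.998), with an interval of -0.36 to 0.37. Without the array of hour 3 the values of sa and fzo were -0.03 and -0.12. The interval of aly held no change beyond 0.23 in size, while those of sa and fzo reached down to -0.68 and -0.69, so a missed threshold does not show that these genes stayed level.

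The later arrays, hours 7 to 12, were then set against the earlier ones, hours 1 to 6, with 5 arrays a side. Again 0 of 4 passed (limma, 0 of 4 also at an unadjusted p under 0.05), beside 0.00716% of all probe sets. For fzo the mean intensity was 38 ± 2.93 later and 44.8 ± 8.79 earlier (SD, n = 5 each), which in log2 units is -0.22 ± 0.12 with its SE (limma, adjusted p = 0.858), and a 95% interval of -0.48 to 0.04. The sides overlapped, with 33.84 to 41.05 later and 36.31 to 59.11 earlier, and an exact permutation test gave p = 0.119 (two-sided), where the smallest value 5 against 5 can give is 0.00794. For sa the means were 144.7 ± 10.9 and 161.6 ± 42.3 (SD, n = 5 each), and the difference of -0.13 ± 0.14 (limma, adjusted p = 0.863) became 0.02 without hour 3. For aly the means were 171.7 ± 6.55 and 167.7 ± 7.05, a difference of 0.03 ± 0.05 (limma, adjusted p = 0.903). For can they were 20.7 ± 2.87 and 20.6 ± 1.94, a difference of 0.0047 ± 0.11 (limma, adjusted p = 0.994). The later side holds hour 7, whose values were known when the members were chosen. Without that array the differences were 0.02 for aly, -0.13 for sa, 0.04 for can and -0.18 for fzo.

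**Figure D2:**
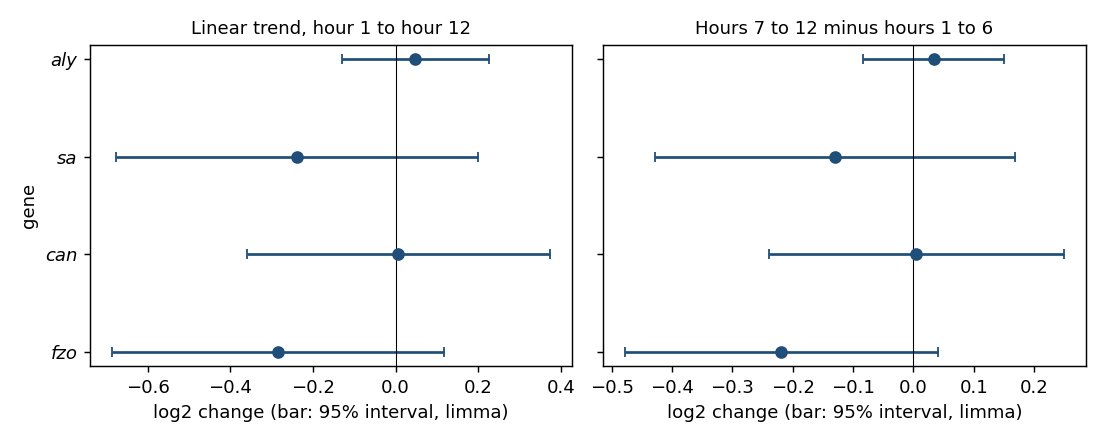
Fitted log2 change of each gene with its 95% interval (limma, n = 10 arrays), on the left for the linear trend from hour 1 to hour 12 and on the right for hours 7 to 12 minus hours 1 to 6. Every interval crosses 0, and that of aly is the narrowest, from -0.13 to 0.23 for the trend.

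A smooth course that may bend was fitted as a spline of the hour. By limma's F test 0 of 4 members passed, 0 of 4 had an unadjusted p under 0.05, and the share of all probe sets that passed was 0%. The fitted curves spanned 0.08 for aly, 0.22 for sa, 0.09 for can and 0.33 for fzo on the log2 scale, beside a median of 0.19 over all probe sets. In simulated data with 200 changed probe sets, this fit called 0% of those given a bend of 0.55 and 78.5% of those given 1.1. The simulated noise was independent for each probe set, without shifts shared across an array. These shares may therefore not hold for the real arrays. A missed threshold here therefore does not show that the members stayed level.

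At hour 7 the members stood near or below their level on the other arrays. Against the median of the other 9 arrays, aly had 176.5 and 169.7, a 1.04-fold level. sa had 143.8 and 145.4, or 0.989-fold. can had 18.85 and 20.29, or 0.929-fold, and fzo had 33.84 and 40.49, or 0.836-fold. For fzo the hour 7 value lay below the range of the other 9, 36.31 to 59.11, and for the other 3 genes it lay inside their range. Over all probe sets 1.39% were more than 1.5-fold higher at hour 7 and 0.172% more than 1.5-fold lower, and 0 of 4 members were either. Since hour 7 was known when the members were chosen, nothing is read from that count.

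The other subunit genes of the same machinery are given at hour 7 as values, with nothing read from how few moved by 1.5-fold, since over all probe sets 1.39% were higher and 0.172% lower by that measure. In tMAC the genes besides aly had log2 ratios from -0.25 for comr to 0.20 for wuc. The zinc finger subunit gene topi had 65.03, with 66.98 as the median elsewhere, and tomb, whose protein is related to LIN-54, had 131.2 and 120.6. comr, cookie monster, had 36.52 and 43.33. The tTAF list holds nht and mia besides can and sa, which were chosen on their hour 7 values. The TAF4-related gene nht, no hitter, had 77.95, with 84.77 as the median elsewhere, a ratio of -0.12. The TAF6-related gene mia had 70.75 and 77.72, a ratio of -0.14. A dimmer probe set of mia had 21.71 and 20.33, a ratio of 0.09. Beside these, the median ratio over all probe sets was 0.0081.

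Next came genes that act just before or beside the meiotic arrest genes. Among 6 measured regulators the ratios lay between -0.07 and 0.16, with bam, which ends the spermatogonial divisions, at 143.4 against a median of 131.2, and kmg, a zinc finger gene of spermatocytes, at 124 against 111. The meiotic cell cycle genes twe, a Cdc25 phosphatase gene, and bol, an RNA-binding protein gene of the DAZ family, had ratios of -0.05 and 0.18, and the cyclin gene CycB had -0.23.

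The genes of late sperm, which are transcribed under the same programme, were high at hour 7. Of 16 measured late sperm genes out of 25 listed, 13 were more than 1.5-fold higher at hour 7 and 0 lower, with a median log2 ratio of 1.45. Over all probe sets 1.39% were higher and 0.172% lower by that measure. The 13 include djl, with 25.65 at hour 7 and a higher 29.98 at hour 9, and Mst35Bb, with 17.91 and at most 9.954 elsewhere. Mst35Bb lay under the chip's 5th percentile of 27 on every array, and djl on all but hour 9. The sperm tail gene dj, don juan, had 130 at hour 7 and 10.42 to 13.81 on the other 9 arrays, under the chip's 5th percentile of 27, so no fold is given for it. Next by ratio were the sperm tail genes Mst84Dd and Mst87F with 6.11-fold and 5.49-fold, the gene ocn with 4.33-fold, the sperm chromatin gene Mst77F with 3.89-fold and Mst84Da with 3.08-fold. For Mst87F the other 9 arrays lay between 90.53 and 114.9, and hour 7 was 574.9. The largest ratio in the tMAC and tTAF lists, 0.20 for wuc, lay above that of 1 late sperm gene, the leucyl aminopeptidase gene S-Lap5 at 0.06. Whether the lists differ was not tested, since hour 7 is a single array. The contrast between members and late sperm genes was fixed when the members were chosen, so nothing is read from it.

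Of 10 post-meiotic cup and comet genes, whose RNA is made in spermatids after meiosis, 2 were more than 1.5-fold higher at hour 7. Their median ratio was 0.23 beside the 1.45 of late sperm genes, and 1.39% of all probe sets were higher by that measure. The 2 cup and comet genes were w-cup with 60.38 against 27.69 and soti with 152.9 against 82.31. Of 5 genes listed as structural for spermatocytes 2 were past 1.5-fold higher, beside the same 1.39%. They were the testis tubulin gene betaTub85D, at 137.3 against 83.68, and the testis proteasome gene Prosalpha4T1, at 130.9 against 86.57.

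**Figure D3:**
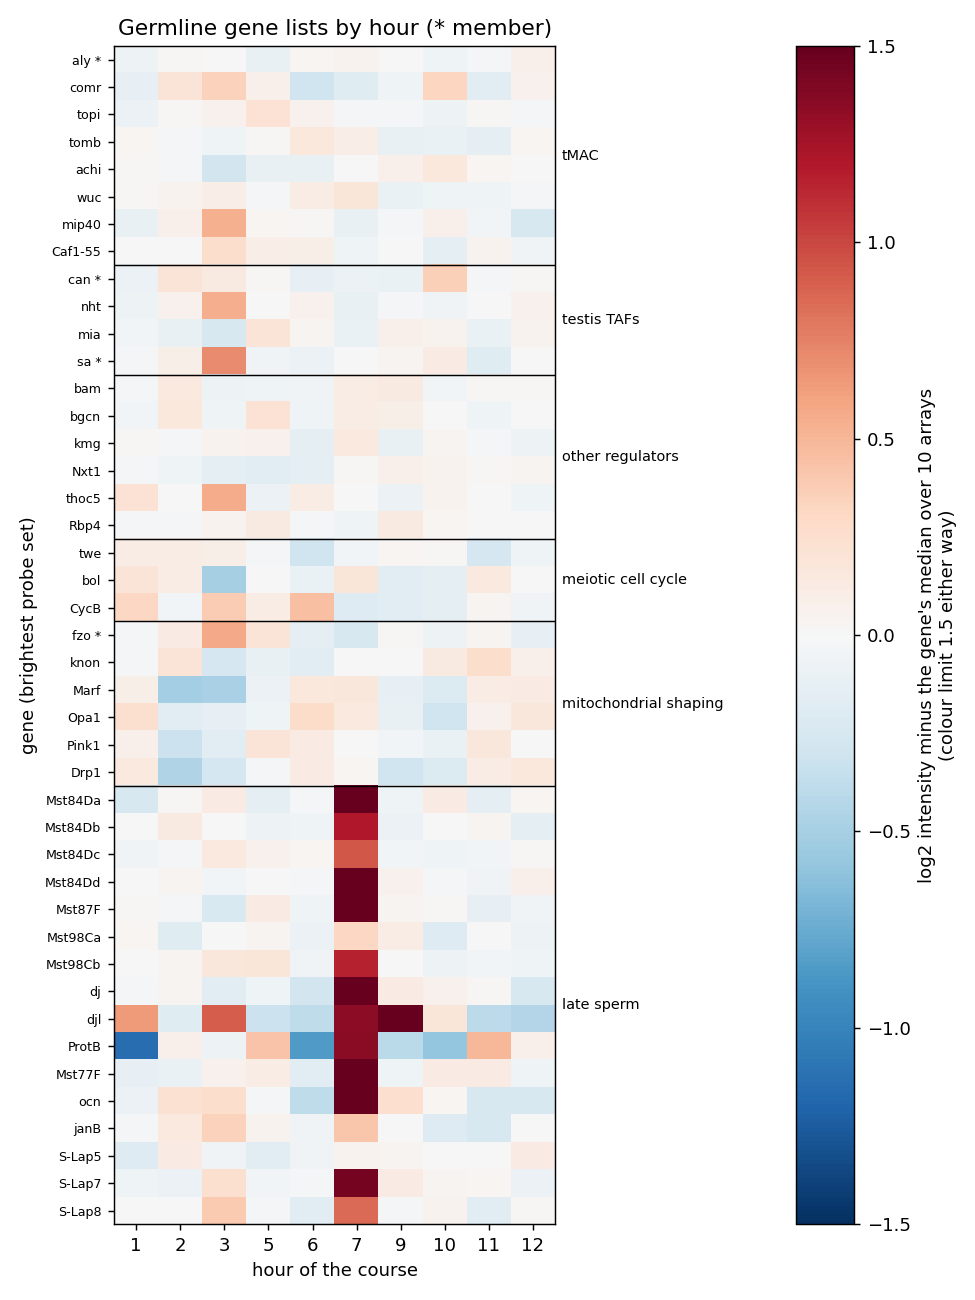
Log2 intensity minus each gene's own median over 10 arrays, in colour with a limit of 1.5 either way, for 1 probe set a gene (rows, members starred) and 10 hours (columns). Most late sperm rows are red at hour 7, janB, Mst98Ca and S-Lap5 being paler, where tMAC, tTAF and regulator rows are pale, and sa, nht, mip40, thoc5 and fzo are redder at hour 3 than at other hours.

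Markers of another male tissue were high with the late sperm genes at hour 7. A yolk protein gene was low there and at hours 9, 10 and 12. All 11 measured accessory gland genes had their highest array at hour 7, where 10.2% of all probe sets had theirs. More than 1.5-fold higher there were 9 of 11, beside 1.39% of all probe sets. The 9 include Acp26Aa and Acp76A, with 24.05 and 11.82 at hour 7, which lay under the chip's 5th percentile of 27 on every array. The summed intensity of all 11 was 1194 at hour 7, where the other 9 arrays gave 392.7 to 463.6. Acp95EF had 395.9 against 38.91, a 10.2-fold difference, and Acp53Ea 37.19 against 10.27, the latter also under 27. The summed late sperm intensity was 4998 at hour 7 and 1957 to 2175 elsewhere. The sum over the 4 members was 373.1 at hour 7 and 357.8 to 489 elsewhere. The 5 genes listed for somatic cells of the testis had ratios of -0.31 to 0.14, among them eya with 109.9 against 105.4. The -0.31 was that of upd1, which lay under 27 on every array, at 4.065 to 12.15. Whole-fly RNA does not show which tissue these 5 genes were read from, so nothing on the testis is drawn from them. Of the female markers 0 were past 1.5-fold higher, and Yp1 was lower by that measure, with 180.1 against 325.6. For Yp1 hour 7 lay inside its range of 161.7 to 1332 elsewhere and was not particular. It had 1332 at hour 1, and 206, 165.4 and 161.7 at hours 9, 10 and 12, but 325.6 at hour 11. All 3 yolk protein genes had ratios below 0, with a median of -0.48, and they summed to 720.9 at hour 7 and 615.4 to 3539 elsewhere, the 11 eggshell genes to 1863 and 1879 to 2899, and the 9 female germline genes to 1823 and 1795 to 2313. The part of sex or tissue make-up in the hour 7 values was not tested.

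Hour 3 was the array on which the members parted. It was chosen for description after these values were seen, so no test is given. The ratio to the median elsewhere was 1.64-fold for sa and 1.503-fold for fzo. It was 1.11-fold for can and 1.01-fold for aly. Thus 2 of 4 were past 1.5-fold higher, where 7.63% of all probe sets were, and 0 of 4 were past 1.5-fold lower, where 1.15% were. fzo lay just past that limit, at a log2 ratio of 0.59, and came below it at 0.54 with quantile normalization and 0.51 with median centring. sa had 0.59 and 0.65 with these. aly, at 0.02, turned to -0.09 and -0.08. Without hour 3 the 9 arrays of sa spanned 1.24-fold and those of fzo 1.35-fold.

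The hour 3 array also stood apart as a whole. Its median of 120.1 was the highest, with 111.2 to 115.7 on the other arrays, and 27.9% of all probe sets had their highest value there, where the other arrays had 5.11% to 15.6%. The actin 3' to 5' control ratio, a sign of RNA integrity and labelling, was 2.53 at hour 3 and 1.80 to 2.56 on the other arrays. Yolk protein genes summed to 1658 at hour 3, above their median of 842.2 elsewhere but inside the range of 615.4 to 3539. Their part in the sa and fzo values was not tested.

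Other germline genes lay on both sides of their usual level at hour 3. In the tTAF list nht had 123.1 against a median of 83.41, a log2 ratio of 0.56, and mia had 64.26 against 77.72, a ratio of -0.27. In tMAC the LIN-37-related gene mip40 had 372.5 against 254.1, a ratio of 0.55, while the homeodomain gene achi had a ratio of -0.28 on 1 probe set and 0.38 on the other. The thoc5 gene, of the THO complex that works in RNA export, had 133.1 against 90.8. bol was at its lowest there, 438.8, against 549 to 708.7 on the other 9 arrays, with a ratio of -0.50, while its other probe set had -0.08. Of the structural genes of spermatocytes 2 of 5 were past 1.5-fold higher at hour 3, where 7.63% of all probe sets were, and the median ratio was 0.44 beside 0.04 over all probe sets. These were exu, with 215.1 against 119.7, and the testis proteasome gene Prosalpha6T, with 134.2 against 89.36. exu was in that list although it is an RNA-binding protein gene and not a structural one. It was also high at hours 1 and 6, with 183.8 and 180.4. Yp1 too was highest at hours 1, 6 and 3, with 1332, 734.7 and 509.6. The tissue behind the exu values was not tested. Of the cup and comet genes 1 of 10 was, schuy with 375.8 against 204, and their median was 0.25. Of the late sperm genes 1 of 16 was, djl with 19.01 against 8.96, and their median was 0.13.

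**Figure D4:**
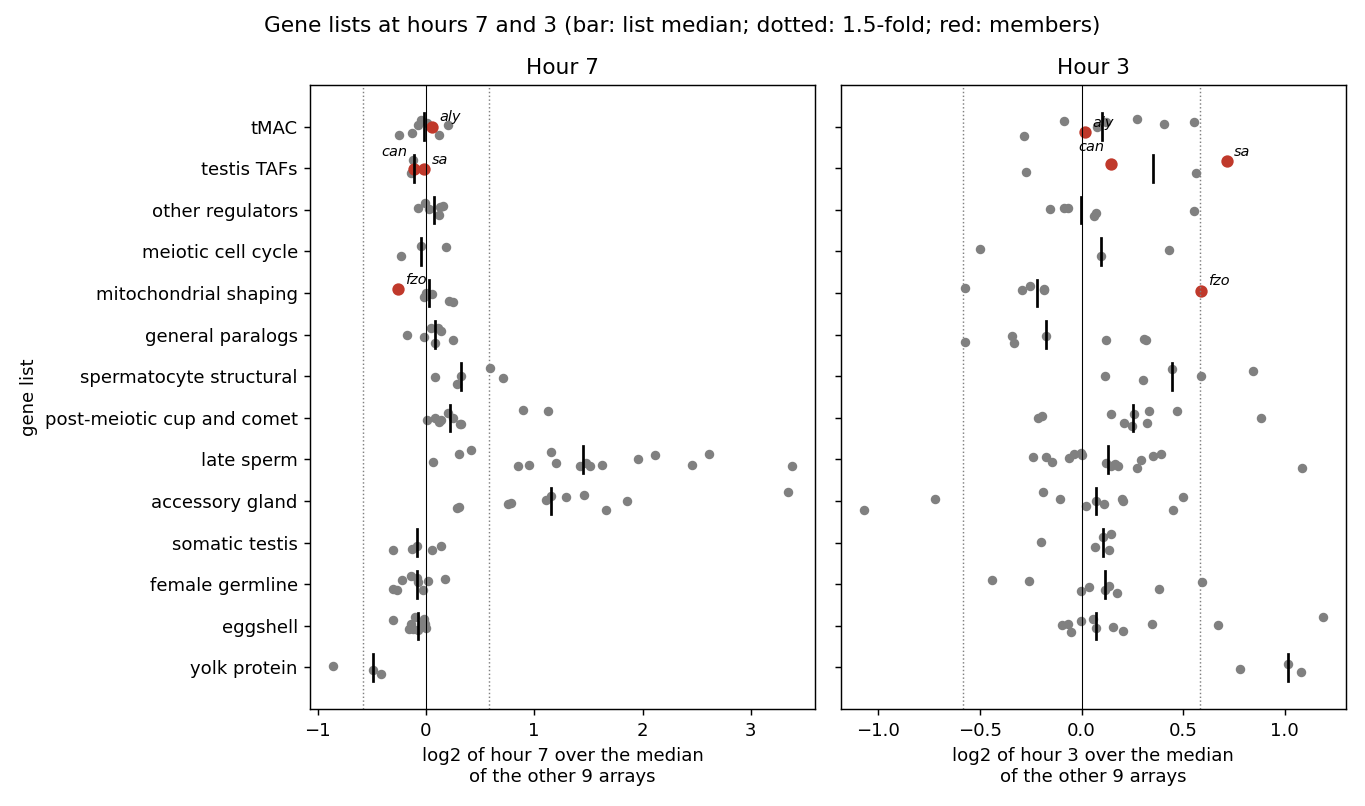
Log2 of the intensity at hour 7 (left) and at hour 3 (right) over the median of the other 9 arrays, with 1 point per gene, the median of each list as a bar, 1.5-fold as dotted lines and the members in red. At hour 7 the members, chosen because they had not risen there, lie between -0.26 and 0.06. Of 16 late sperm genes 13 lie past the upper dotted line at hour 7. At hour 3 sa and fzo lie at 0.72 and 0.59.

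Paralogs that work outside the testis give a comparison for each member. Marf, the mitofusin of other tissues, had 315.2 at hour 7 and 200.1 at hour 3, and its other arrays lay between 197.8 and 312.3. Its log2 ratio at hour 3 was -0.58, opposite in sign to the 0.59 of fzo. Taf8 had 78.51 at hour 3 against a median of 63.35, a ratio of 0.31 beside the 0.72 of sa. Taf5 had a ratio of 0.32 at hour 3 beside 0.14 for can, and mip130, a relative of aly in the general complex, had -0.17. Other genes of mitochondrial shaping, Opa1, Pink1, Drp1 and knon, had hour 3 ratios between -0.29 and -0.18, beside a median of 0.04 over all probe sets. These low values were not particular to hour 3. Marf, Opa1, Pink1 and Drp1 were lower at hour 2, with 197.8, 181.4, 492.6 and 99.25. knon lay under the chip's 5th percentile of 27 on every array.

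In the Release 6 gene table sa lies inside the span of the gene rgn, and fzo inside that of cnc, while no gene overlaps aly or can. The rgn probe set had 355.5 at hour 3, its lowest array, with 355.8 to 480.2 elsewhere. The 4 cnc probe sets had hour 3 ratios between 0.04 and 0.33, the largest on a probe set with 33.79 there. The probe sequences, which would show what else each probe set could bind, were not used here.

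Probe sets whose course over the 10 arrays was most like that of a member were named as a description. Each was the best of 7468 candidates over only 10 points, which share their arrays and their scaling. For sa these were CG15199, CG10948 and gfzf, each with Pearson's r of 0.99, and each had its highest array at hour 3. For fzo they were Dus3, Tsp5D and bw with r of 0.97, 0.96 and 0.93, also highest at hour 3. For can they were Drgx, X11Lbeta and Rsph4a with r of 0.95, 0.94 and 0.92, highest at hour 10. For aly they were Ret, CG13323 and CG12355 with r of 0.88, 0.86 and 0.85. None of them is in the germline lists. Without hour 3 the genes nearest to sa became beat-IIa, CG14572 and CG18335, none of them among the first 3. Between sa and fzo r was 0.77 over 10 arrays and -0.04 without hour 3.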

How the data were processed

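Each array gave linear intensities, deposited as 1 column per hour with 0 values at or below 0. The authors normalised them with dChip by an invariant set, per the labels. The dChip version is not given in the sources used here. Such scaling is meant to take out a shift common to most probe sets. The hour 3 array still had the highest median, 120.1, with 111.2 to 115.7 on the others. An intensity compares 1 probe set between arrays, not 2 probe sets. Of 14010 probe sets 44 were controls, and of the other 13966, 12442 named 1 gene. Symbols came from the platform annotation and the Release 6 gene table. No build is named, so no coordinates are given.

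Log2 intensities were used without floor or filter. Fits used limma 3.58.1 (lmFit, eBayes with an intensity trend) in R 4.3.3 over all 13966 probe sets, with p-values adjusted by Benjamini-Hochberg and a threshold of 0.05. The smooth course was a natural cubic spline with 3 degrees of freedom. The fits were tested on simulated data. With 1 array an hour, p-values measure how single arrays scatter around the fitted course, and the number of arrays limits the precision. Where a gene had several probe sets, the brightest stood for it.

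The members, lists and tests were chosen with earlier results of these data known. The text could name each member and any gene of the short regulator and paralog lists. It could name up to 6 genes of each late sperm, post-meiotic or structural list by ratio at hour 7, up to 3 of each marker list by SD, and the 3 most alike probe sets per member at or above the 40th percentile of brightness. S-Lap5, djl, Mst35Bb, Acp76A, schuy, rgn, cnc and the hour 3 comparison, with its alternatives, were chosen after their values were seen. Alternatives were floors, an offset, a filter, other normalizations, the actin ratio as covariate, other variance models, splits and curves, rank and exact tests, and leaving out arrays.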

Additional observations from a re-analysis of the deposited data

Results flagged for a closer look

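In sa the array of hour 3 lay far from the other 9, at an intensity of 236.3, and the gap to the next array was 0.657 of the whole range on the log2 scale, past the limit of Dixon's test for 10 arrays. In fzo the array of hour 3, at 59.11, had a gap of 0.468 of the range, just past that limit. aly and can had gaps of 0.188 and 0.334 at most. Chance flags about 1 in 20 groups, and on these arrays 16.3% of all probe sets passed the limit, and 10.6% of all probe sets passed it with hour 3 as the high array. The arrays are different hours and not repeats of 1 hour.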

How the results depend on the processing

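No member passed a trend, later against earlier or smooth fit under any alternative run, and the smallest limma or rank adjusted p of a member was 0.667 for the trend, 0.711 for later against earlier and 0.759 for the smooth course. With a filter at the 40th percentile fzo and can were too dim to test. Directions near 0 turned: for can the trend had a rank correlation of -0.0788, and later against earlier was -0.0069 with quantile normalization, -0.0051 given the actin covariate and -0.0588 when split after hour 5. For sa, later against earlier was 0.0167 without hours 3 and 7. The cause was not tested. Leaving out 1 array gave trends of 0.0082 to 0.07 for aly, -0.38 to -0.03 for sa, -0.103 to 0.0919 for can and -0.42 to -0.12 for fzo, and later against earlier of 0.01 to 0.05, -0.18 to 0.0155, -0.0758 to 0.0465 and -0.29 to -0.11.

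Over all probe sets the trend count of 4 became 0 with a floor at the 20th or 5th percentile, an offset of 16, the actin ratio, no intensity trend, least squares or ranks, 1 with median centring or without hours 3 and 7, and 0 to 3 without 1 array. The later against earlier count of 1 became 3 with quantile normalization, 0 with either floor, the actin ratio, no intensity trend, another split or without hours 3 and 7, and 0 to 2 without 1 array. The smooth count of 0 became 3 with a quadratic or a 24 hour curve. The cause was not tested.

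At hour 7 the count of 24 lower probe sets was 41 against the mean, 76 against hours 6 and 9 and 6 with an offset of 16. At hour 3 the 160 lower were 81 against hours 2 and 5, 251 with quantile normalization, 274 with median centring and 37 with the offset. fzo at hour 3 was 0.41 against hours 2 and 5 and 0.44 with the offset, sa was 0.59 and aly -0.0902 with quantile normalization, and aly was -0.0811 with median centring. The SDs of sa and fzo were 0.091 and 0.13 without hour 3. No paired analysis was possible because there is 1 group and 1 array an hour. Single arrays and dim probe sets, fzo and can, limit what can be seen.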
